A study of Mus musculus with 6 samples.

Results

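Embryonic stem (ES) cells of the mouse were sequenced as 2 pairs of libraries, and the pairs are compared here with each other. Set 1 holds the libraries titled ESC_OHT and ESC, and set 2 holds those titled ESC2_OHT and ESC2, so the members were chosen by title alone. Together they are 4 of the 6 libraries of the series. Of the 22600 genes in the count table, 21366 lie on the 19 autosomes, and results are given for these genes only. The number in the title is all that separates the sets: no label states that they are separate cultures, lines, passages or days.

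Set 1 and set 2 share their labels in all other respects. In each set, 1 library comes from TRF2-/- cells given OHT (hydroxytamoxifen, the tamoxifen metabolite that switches on inducible Cre recombinases) for 3 days, and 1 from untreated cells labelled wild-type. All are of C57BL/6 background, and the culture lasted 96 h. TRF2, encoded by Terf2, is the shelterin subunit that keeps chromosome ends from being read as breaks. No ES cells received OHT without loss of TRF2, so the effects of the drug and of the loss cannot be told apart. The labels do not name the Cre driver. The libraries were made from total RNA with a stranded TruSeq kit.

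Mouse ES cells divide fast and lack a firm G1 checkpoint. Cells that gain a growth advantage can take over a culture, and gains of whole chromosomes, of chromosomes 8 and 11 in particular, are well known in mouse ES lines. An extra chromosome commonly shows in RNA as a small shift of most of its genes in 1 direction. The p53 pathway is a second axis on which ES cultures are known to diverge: p53, encoded by Trp53, is a transcription factor that is stabilised by DNA damage and switches on genes for arrest, repair and death. DNA copy number was not measured in these libraries.

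Total counts were 31518151 (OHT) and 32277590 (untreated) in set 1, and 23534551 and 38670508 in set 2. A count of 0 allows up to 3 counts, or 0.0790 to 0.118 CPM (counts scaled to a common library size), which covers counting error only. Terf2 (chr8:107069400-107096547, GRCm38) had 0.287 CPM in the OHT library of set 1 and 0.393 CPM in that of set 2, against 18.1 and 19.3 CPM in the untreated libraries of set 1 and set 2, so the treatment labels fit in both sets. The 6 ES cell markers fixed for the check, Pou5f1, Sox2, Nanog, Klf4, Esrrb and Zfp42, summed to 2922 (OHT) and 3228 (untreated) CPM in set 1 and to 2883 and 3239 CPM in set 2. Of the markers of other cells, the 7 for fibroblasts and feeder cells summed to 12.6 and 9.53 CPM in set 1 and to 14.3 and 9.56 CPM in set 2. Trophoblast markers summed to 19.06 and 10.5 CPM in set 1 and 21.4 and 13.1 CPM in set 2. The 3 endoderm markers summed to 2.81 and 1.77 CPM in set 1 and 2.20 and 1.55 CPM in set 2, and the 4 of blood and endothelium to 4.41 and 3.04 CPM in set 1 and 3.81 and 3.50 CPM in set 2. The 3 neural markers were not low, at 204.2 and 250.8 CPM in set 1 and 204.1 and 227 CPM in set 2, nearly all of it Tubb3, a neuronal tubulin, at 194 and 245 CPM in set 1 and 198 and 223 CPM in set 2. No marker on these lists was at 0 in all 4 libraries. In bulk RNA, fewer cells of a type and less RNA per cell cannot be told apart.

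The sets stood much closer together without OHT than with it. Over 9582 autosomal genes averaging 5 CPM or more, the difference of log2(CPM + 1), set 1 minus set 2, had a standard deviation across genes of 0.43 between the OHT libraries and 0.16 between the untreated libraries. A chi-square per degree of freedom of 66.3 for the OHT pair and 13.2 for the untreated pair shows only that the 2 libraries of each pair are not copies of each other. Each treatment has 1 library per set, so a difference within a treatment has no replicate check. Genes of the Y chromosome, which lie outside the autosomes, also set the pairs apart: Ddx3y, Eif2s3y, Kdm5d and Uty together had 179 (OHT) and 49 (untreated) counts in set 1, against 1 and 0 counts in set 2.

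Whole chromosomes stood apart between the sets. Genes of chromosomes 6 and 8 were higher in set 1 with OHT and without it, and genes of chromosome 16 and of the distal part of chromosome 11 were lower in set 1 with OHT and without it. The OHT and the untreated differences share no library. The median difference on chromosome 6 (448 genes) was 0.35 with OHT and 0.15 untreated, which are ratios of set 1 to set 2 of 1.27 and 1.11. On chromosome 8 (554 genes) it was 0.31 with OHT and 0.17 untreated, or ratios of 1.24 and 1.12. On chromosome 16 (309 genes) it was -0.30 with OHT and -0.14 untreated, or ratios of 0.810 and 0.910. In all 3 cases the shift was larger between the OHT libraries.

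The other 15 autosomes, leaving out chromosome 11, lay close to 0. Their medians ran from 0.02 to 0.17 with OHT, the highest on chromosome 19, and from 0.00 to 0.04 untreated. Pooled, their 7430 genes had a median of 0.06 with OHT and 0.02 untreated. A proportional rise for 3 copies in place of 2 would be 0.58 on the log2 scale, and every autosome's median was below that in size. Whether a part of the cells or all of them carried the shift was not tested, since bulk values do not show it.

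**Figure D1:**
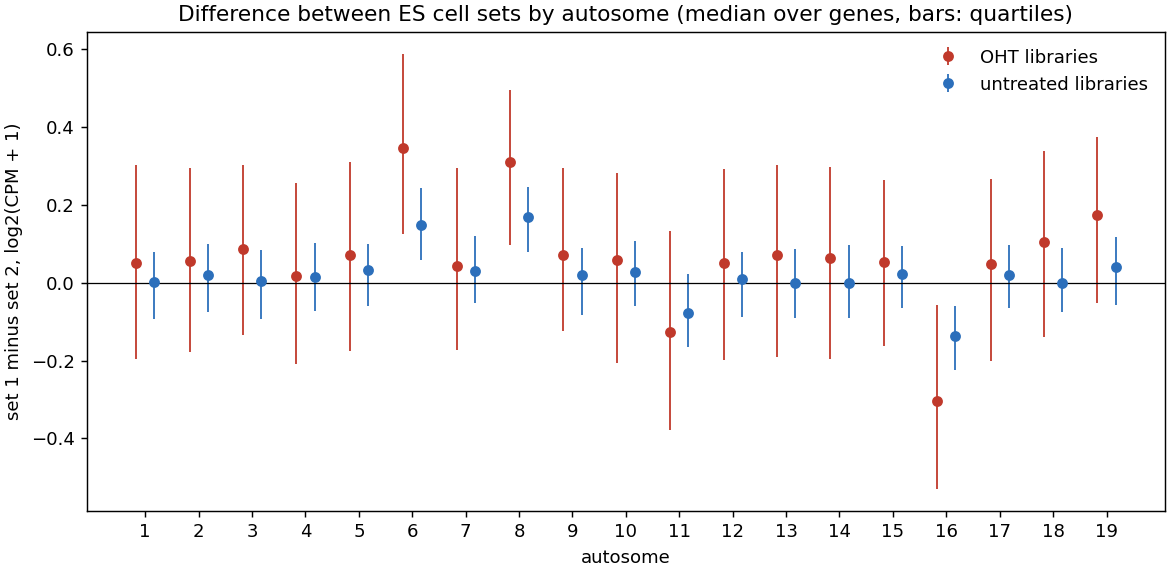
Median difference of log2(CPM + 1), set 1 minus set 2, for each of the 19 autosomes (x axis) in OHT libraries (red) and untreated libraries (blue), with 1 library per set in each; bars span the quartiles over genes, not replicates. Chromosomes 6 and 8 stand above 0 and chromosomes 11 and 16 below it in both treatments, and chromosome 19 is the highest of the rest with OHT at 0.17.

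The shifts were carried by most genes of these chromosomes rather than by a few. On chromosome 6, 84.6% of genes were higher in set 1 with OHT and 86.2% untreated, and 77.2% were higher in both. On chromosome 8 the shares were 82.1%, 88.4% and 75.5%. On chromosome 16 the genes higher in set 1 were 19.4% with OHT and 12.6% untreated, and 72.5% were lower in both. On the 15 other autosomes, between 52.3% and 68.0% of genes were higher in set 1 with OHT and between 49.1% and 62.8% untreated. Genes of 1 chromosome share their libraries and are not replicates of a set, so no p-value is attached to these shares.

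Within the chromosomes every window measured showed the shift. In windows of 10 Mb with at least 20 genes, 11 of 11 windows of chromosome 6 were higher in set 1 in both treatments, at 0.26 to 0.54 with OHT and 0.10 to 0.26 untreated. All 12 windows of chromosome 8 were likewise higher, at 0.25 to 0.38 with OHT and 0.10 to 0.24 untreated. All 7 windows of chromosome 16 were lower in both treatments, at -0.42 to -0.17 with OHT and -0.17 to -0.09 untreated. The 140 windows of the 15 other autosomes ran from -0.19 to 0.23 with OHT and from -0.16 to 0.09 untreated.

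Chromosome 11 was split. As a whole (841 genes) its median was -0.13 with OHT and -0.08 untreated. Its 5 windows below 60 Mb ran from 0.00 to 0.27 with OHT and from -0.03 to 0.08 untreated, while its 7 windows from 60 Mb on were all lower in set 1, at -0.41 to -0.09 with OHT and -0.12 to -0.10 untreated. The border at 60 Mb was set after these values were seen. Beyond it, 599 genes had a median of -0.23 with OHT and -0.11 untreated, and 64.1% of them were lower in both treatments. Below it, 242 genes had a median of 0.11 with OHT and 0.02 untreated, near that of the other autosomes. Trp53 lies in the distal stretch.

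A smaller stretch of the same kind lay at the end of chromosome 2, also singled out after its values were seen. From 170 Mb on, 85 genes had a median of -0.15 with OHT and -0.06 untreated, against 0.08 and 0.02 for the 722 genes before it. Its first window, of 53 genes, was at -0.19 with OHT and -0.16 untreated. The last window, of 32 genes, was at -0.08 with OHT and 0.05 untreated, so the untreated libraries did not show one shift over the whole stretch.

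**Figure D2:**
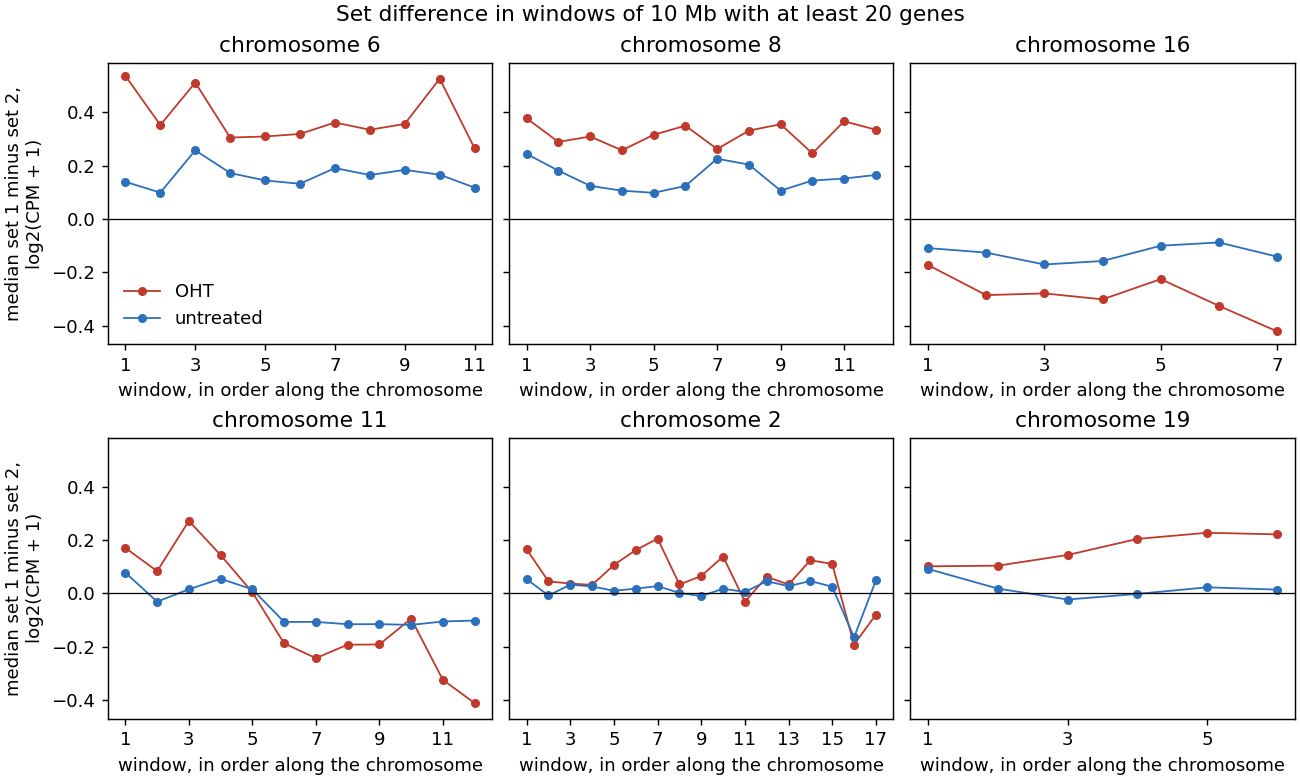
Median difference of log2(CPM + 1), set 1 minus set 2, in windows of 10 Mb with at least 20 genes (x axis, in order along the chromosome) for chromosomes 6, 8, 16, 11, 2 and 19, in OHT libraries (red) and untreated libraries (blue). All windows of chromosomes 6 and 8 lie above 0 and all of chromosome 16 below it; chromosome 11 crosses 0 between its first 5 and last 7 windows.

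Each library's own level shows how the 4 stood to each other. As medians of each gene's deviation from its 4-library mean, chromosome 6 stood at 0.17 (OHT) and 0.09 (untreated) in set 1, against -0.19 and -0.06 in set 2. Chromosome 8 stood at 0.12 and 0.13 in set 1, against -0.19 and -0.04 in set 2. For chromosome 16 the levels were -0.18 and -0.01 in set 1, against 0.12 and 0.11 in set 2. Over all autosomes they were 0.00 and 0.05 in set 1, against -0.06 and 0.03 in set 2. The sets do not overlap on these 3 chromosomes, nor on chromosomes 3, 11, 18 and 19, where the gaps were narrower. On chromosome 19 the levels were 0.07 and 0.02 in set 1, against -0.08 and -0.02 in set 2. Lack of overlap alone thus does not mark out the 3 chromosomes. A difference has no zero of its own, so which of the sets is the unusual one cannot be told apart.

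Within each set, OHT libraries can be set against untreated ones. The median OHT minus untreated difference on chromosome 6 was 0.07 in set 1 and -0.11 in set 2. For chromosome 16 it was -0.16 in set 1 and 0.01 in set 2. For the distal part of chromosome 11 it was -0.18 in set 1 and -0.08 in set 2. The median over all autosomes was -0.06 in set 1 and -0.09 in set 2. These are differences between single libraries and were not tested.

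Gene by gene, the fit with OHT as a block called none of the autosomal genes. With edgeR's quasi-likelihood test and Benjamini-Hochberg adjustment, 0 of 13667 autosomal genes tested passed an adjusted p of 0.05 (0%), and the smallest adjusted p was 0.358. DESeq2 with the same design also called 0. At an unadjusted p under 0.05 there were 1391 genes (10.2%), of which 576 (4.21%) were higher and 815 (5.96%) lower in set 1. The fit has 1 residual degree of freedom, and in an exact permutation of 2 against 2 libraries no p can be below 0.333. Leaving out the untreated library of set 1, in a fit that then has no OHT term and sets OHT alone against both treatments, gave 32 higher and 111 lower genes, and leaving out the OHT library of set 1 gave 28 lower. In the fit with OHT as a block, the residual degree of freedom is the difference between the set effects with and without OHT. A gene that differs between the sets only with OHT thus carries that difference as error. Nothing says that the libraries are biological replicates, so these p-values do not measure a spread among replicates.

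The genes with an unadjusted p under 0.05 followed the chromosomes. On chromosome 6, 123 of 650 genes (18.9%) were higher in set 1 and 19 lower. On chromosome 8, 130 of 767 genes (16.9%) were higher and 14 lower. On chromosome 16, 77 of 419 genes (18.4%) were lower and 1 was higher. On chromosome 11 from 60 Mb, 124 of 857 genes (14.5%) were lower and 10 higher. The 15 other autosomes held 300 higher (2.82%) and 567 lower (5.33%) among 10647 genes.

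By size alone the treatments were far apart. With OHT, 389 of 12250 genes (3.18%) differed at least 2-fold between the sets at an average of 1 CPM or more, 56 higher (0.457%) and 333 lower (2.72%) in set 1. Untreated, 0 of 11702 genes did (0%), and the differences ran from -0.86 to 0.81. Genes that differed with OHT mostly leaned the same way without it. Of 297 genes that were 2-fold lower in set 1 with OHT and had at least 1 CPM untreated, 260 (87.5%) were also lower untreated, with a median untreated difference of -0.24, where 47.8% of all autosomal genes were lower. Of 55 that were 2-fold higher, 48 (87.3%) were higher untreated, with a median of 0.26, where 52.2% of all were higher.

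Across the 9582 genes the OHT and untreated differences correlated with Pearson's r at 0.42 and Spearman's coefficient at 0.37. On the 15 autosomes other than 6, 8, 11 and 16 the Pearson r was 0.35 over 7430 genes. Across the 19 autosome medians r was 0.96 (Spearman 0.47), and across the 15 others 0.24. These describe these libraries: genes share the depth and base composition of their library and are not replicates.

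**Figure D3:**
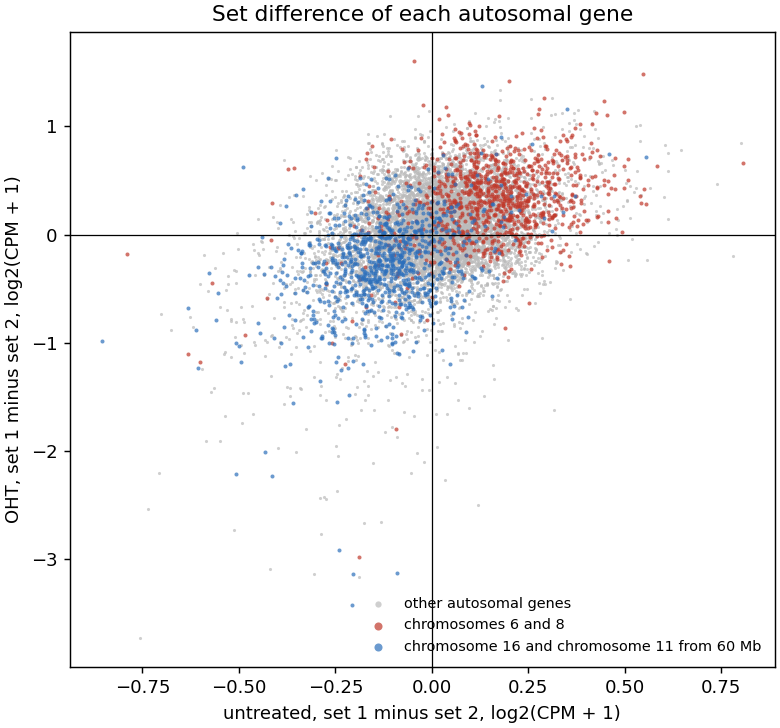
Each point is 1 autosomal gene averaging 5 CPM or more: difference of log2(CPM + 1), set 1 minus set 2, between untreated libraries (x axis) and between OHT libraries (y axis). Genes of chromosomes 6 and 8 (red) gather to the upper right and those of chromosome 16 and of chromosome 11 from 60 Mb (blue) to the lower left, while the tail far below 0 with OHT holds genes of many chromosomes.

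A shared direction alone was common: of the 9582 genes, 37.5% were higher and 25.5% lower in set 1 in both treatments. Few single genes differed by much in the same direction in both. At 1.5-fold in both treatments and at least 1 CPM there were 32 of 11615 genes (0.276%), 8 higher (0.0689%) and 24 lower (0.207%) in set 1. The genes named next were chosen by small p-values, by wide OHT differences, by wide untreated differences or as list members. None passed in edgeR's quasi-likelihood test, where the smallest adjusted p was 0.358. They are described by their levels. Choice by p-value or size favours genes in which the sets do not overlap, and the share of all genes without overlap was not counted.

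Trh (chromosome 6), the precursor of thyrotropin-releasing hormone, had 1005 (OHT) and 1224 (untreated) CPM in set 1, against 635 and 700 CPM in set 2. Bcl11a (chromosome 11, proximal part), a zinc-finger repressor known from globin switching, had 4.05 and 2.42 CPM in set 1, against 1.02 and 1.11 CPM in set 2. In both genes all of set 1 lay above all of set 2, which the way they were chosen favours.

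Ccnd2 (chr6:127125162-127152193) encodes cyclin D2, which drives entry into the cell cycle. It had 12.6 and 3.08 CPM in set 1, against 3.89 and 1.79 CPM in set 2, a difference of 1.48 with OHT and 0.55 untreated (fitted 1.28, SE 0.27). Its relative Ccnd1 (chromosome 7) had 108 and 119 CPM in set 1, against 57.1 and 90.2 CPM in set 2. Ccnd3 (chromosome 17) went the other way, with 125 and 151 CPM in set 1, against 158 and 192 CPM in set 2. Lmna (chromosome 3), which encodes the nuclear lamins A and C, had 98.4 and 70.0 CPM in set 1, against 48.5 and 48.2 CPM in set 2. Smarcd3 (chromosome 5), a subunit of the BAF chromatin remodeller, had 24.01 and 24.2 CPM in set 1, against 13.5 and 15.1 CPM in set 2.

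On the lower side, Acsf2 (chr11:94557102-94601871), an acyl-CoA synthetase, had the smallest p of all autosomal genes, 0.000304 before adjustment and 0.358 after it in edgeR's test. It had 12.4 and 16.01 CPM in set 1, against 25.6 and 29.8 CPM in set 2. All of set 1 thus lay below all of set 2, which its choice by p-value favours. Its difference was -0.99 with OHT and -0.86 untreated (fitted -0.97, SE 0.18). Calcoco2, an autophagy receptor on the same stretch of chromosome 11, had 103 and 93.8 CPM in set 1, against 244 and 143 CPM in set 2. Ahsg (chromosome 16), which encodes fetuin-A, had 2.39 and 3.37 CPM in set 1, against 7.43 and 6.22 CPM in set 2. The sets did not overlap in either gene, which their choice by small p-values favours.

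Lama3 (chromosome 18), a laminin chain of epithelial basement membranes, had 14.2 and 35.7 CPM in set 1, against 68.8 and 59.0 CPM in set 2. Cpxm1 (chromosome 2), a carboxypeptidase-like protein, had 20.3 and 22.0 CPM in set 1, against 49.4 and 33.7 CPM in set 2. Dppa3 (chromosome 6), which encodes the maternal and germ cell protein Stella, is a marker of the naive state. It was an exception to the shift of its chromosome, at 23.98 and 10.3 CPM in set 1, against 27.3 and 18.5 CPM in set 2. Its difference was -0.18 with OHT and -0.79 untreated.

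With OHT the gap between the sets was widest in genes low in set 1. H2-Eb1 (chromosome 17), a class II histocompatibility chain, had 2.23 and 11.3 CPM in set 1, against 41.8 and 19.8 CPM in set 2. Cd80 (chromosome 16), a T cell costimulatory ligand, had 0.958 and 4.12 CPM in set 1, against 16.1 and 4.45 CPM in set 2. Rtkn (chromosome 6) had 8.88 and 38.6 CPM in set 1, against 76.7 and 44.1 CPM in set 2. In these 3 genes the OHT library of set 1 was the lowest of the 4 and that of set 2 the highest, with the untreated libraries between them. The 3 were chosen by the width of the OHT gap, which favours this order, so the order is not a separate result.

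Among genes higher in set 1 with OHT, Gata2 (chromosome 6), a transcription factor of blood stem cells, had 49.9 and 11.2 CPM in set 1, against 15.8 and 11.6 CPM in set 2. Zfpm1 (chromosome 8), a cofactor of GATA factors, had 33.7 and 19.4 CPM in set 1, against 11.9 and 16.8 CPM in set 2. Chd7 (chromosome 4), a chromatin remodeller, had 96.8 and 105 CPM in set 1, against 37.7 and 93.1 CPM in set 2. Gata2 was near equal in the untreated libraries and higher with OHT in set 1, while Chd7 was near equal in 3 libraries and low in the OHT library of set 2.

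Many genes of the p53 pathway stood lower in set 1 between the OHT libraries. Trp53 (chr11:69580359-69591873) had 8.59 and 296 CPM in set 1, against 83.3 and 341 CPM in set 2. Both OHT libraries were thus below both untreated ones, by -4.95 in set 1 and -2.02 in set 2 on the log2(CPM + 1) scale, and the OHT library of set 1 was far the lowest. The labels name no deletion other than TRF2. Between the sets the difference was -3.14 with OHT and -0.21 untreated, and the fit over both treatments gave -1.66 (SE 0.57) with an adjusted p of 0.365 in edgeR's test. The 17 other tested genes within 250 kb had a median of -0.32 with OHT, with a range of -1.23 to 0.84, and a median of -0.12 untreated.

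The p53 target list had 42 autosomal genes, of which 41 were tested and 0 were called by edgeR at the adjusted threshold. At an unadjusted p under 0.05, 20 were lower in set 1 and 0 higher, beside 5.96% and 4.21% of all autosomal genes. With OHT, 21 of 40 targets at 1 CPM were at least 2-fold lower in set 1, beside 2.72% of all genes, and 0 were higher. The median of the list was -1.0001 with OHT and -0.06 untreated, beside 0.03 and 0.00 for all autosomal genes tested. With OHT 38 of 41 were lower in set 1, and untreated 23 of 41 were, beside 47.2% and 49.8% of all autosomal genes tested. Outside chromosomes 6, 8, 11 and 16, the median of the 34 targets was -1.05 with OHT and -0.07 untreated, so the list differed by as much without the shifted chromosomes.

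Mdm2 (chromosome 10), the ubiquitin ligase that degrades p53 and is itself switched on by it, had 81.6 and 180 CPM in set 1, against 356 and 200 CPM in set 2. With OHT it was thus below the untreated level in set 1 and above it in set 2. Ccng1 (chromosome 11, proximal part), which encodes cyclin G1, had 46.2 and 273 CPM in set 1, against 296 and 299 CPM in set 2. Perp (chromosome 10), a desmosomal protein that acts in apoptosis, had 3.83 and 6.09 CPM in set 1, against 40.1 and 8.48 CPM in set 2. Plk2 (chromosome 13), a polo-like kinase, had 11.5 and 33.2 CPM in set 1, against 84.2 and 40.7 CPM in set 2. In set 2 the OHT level thus stood above the untreated one for Mdm2, Perp and Plk2 and beside it for Ccng1, while in set 1 it stood below for all 4.

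Other targets were similar. Dcxr (chromosome 11), a xylulose reductase, had 1.98 and 11.8 CPM in set 1, against 30.9 and 13.8 CPM in set 2. Ephx1 (chromosome 1), an epoxide hydrolase, had 2.84 and 14.6 CPM in set 1, against 32.9 and 18.2 CPM in set 2. Phlda3 (chromosome 1), an inhibitor of AKT, had 3.90 and 25.9 CPM in set 1, against 26.6 and 23.7 CPM in set 2. In each, the OHT library of set 1 was the lowest of the 4 and the untreated libraries were close together.

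Genes of arrest and death varied more. Cdkn1a (chromosome 17), the p21 inhibitor of cyclin-dependent kinases, had 19.5 and 37.0 CPM in set 1, against 33.0 and 37.0 CPM in set 2. Bbc3 (chromosome 7), the death gene PUMA, had 2.68 and 10.1 CPM in set 1, against 12.5 and 10.8 CPM in set 2. Bax, the pore-forming death protein on the same chromosome, had 76.3 and 138 CPM in set 1, against 113 and 127 CPM in set 2. Gadd45a, Xpc and Tigar were the only targets higher in set 1 with OHT, by 0.19, 0.30 and 0.10, and all 3 lie on chromosome 6.

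The promoter windows of the targets (RefSeq, GRCm38.p6, 250 bases before to 50 after each gene start) were searched for the p53 consensus, a palindrome of 20 bases made of 2 joined half-sites, so that both strands are read at once. A match was allowed up to 3 bases outside the consensus, with the fixed C and G of both half-sites kept. Of 35 targets matched by symbol, 8 (22.9%) held a match, against 423 of 27025 genes (1.57%) in all. The list holds known p53 targets, so this share describes the list and not these libraries. A match is a run of letters, not a measured site, and targets are known for sites farther from the start too. The 5 shown span the range of the differences with OHT, from Ccng1 at -2.65 to Tigar at 0.10, and capitals mark the match.
Ccng1 (chr11:40755457-40755486, minus strand, 1 base outside the consensus): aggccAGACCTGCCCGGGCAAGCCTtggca
Bbc3 (chr7:16309481-16309510, plus strand, 3 bases outside): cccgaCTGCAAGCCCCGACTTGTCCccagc
Aen (chr7:78895932-78895961, plus strand, 3 bases outside): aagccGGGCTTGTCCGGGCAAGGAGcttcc
Cdkn1a (chr17:29090923-29090952, plus strand, 1 base outside): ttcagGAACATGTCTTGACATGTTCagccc
Tigar (chr6:127109741-127109770, minus strand, 3 bases outside): gcggcGGTCTAGCTCTGGCAAGACTccagg
Genes with a match near the start thus included both low and near-equal ones: Ccng1 differed by -2.65 and Aen by -0.77 with OHT, while Tigar differed by 0.10.

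**Figure D4:**
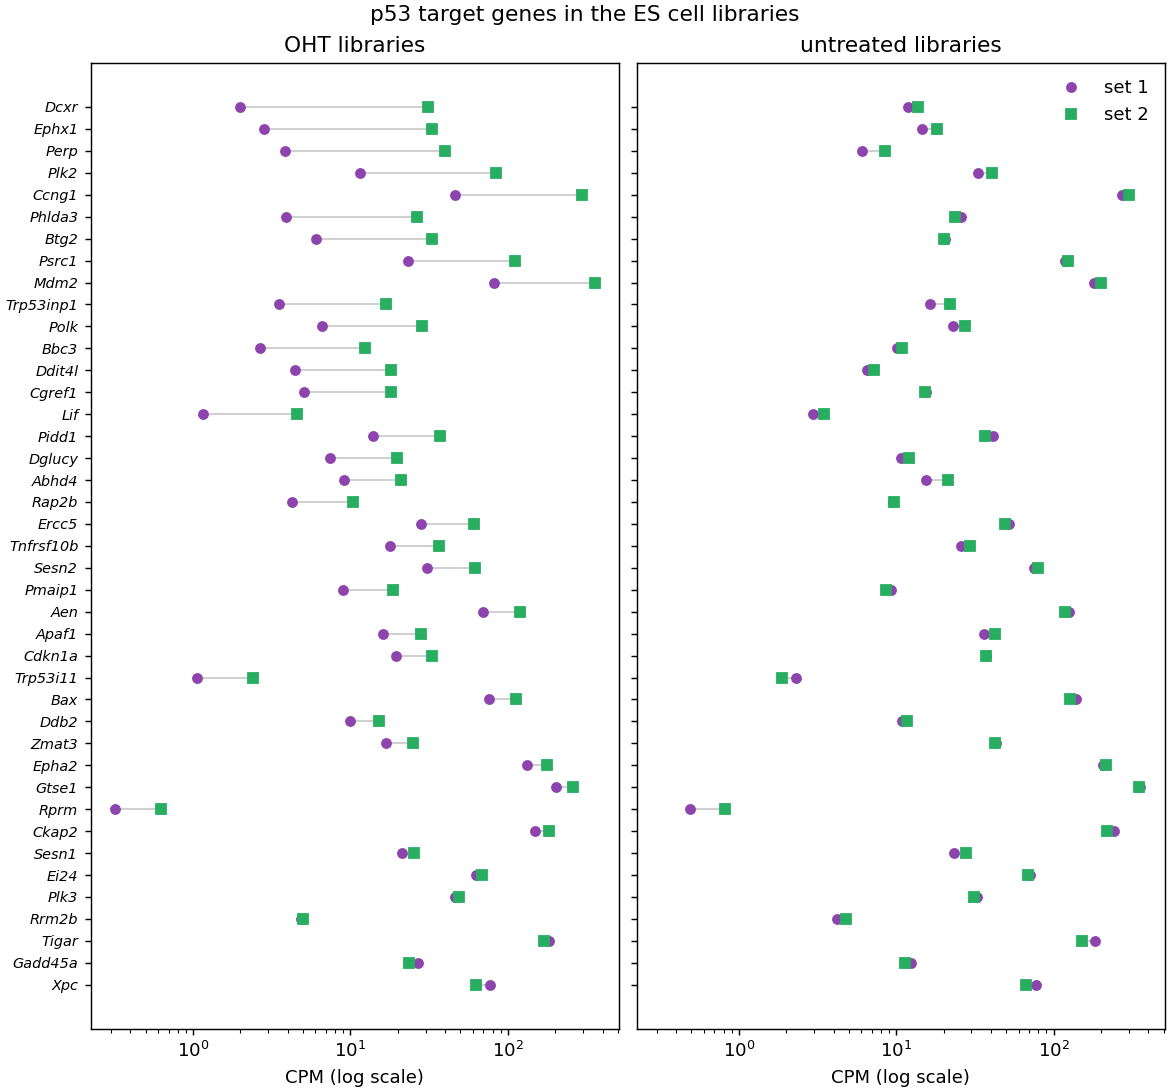
CPM (log scale) of the 41 tested p53 target genes in set 1 (purple circles) and set 2 (green squares), in OHT libraries (left) and untreated libraries (right), ordered by the difference with OHT; 1 library per point. With OHT all but 3 genes stand lower in set 1, and in the untreated libraries the points lie nearly on top of each other.

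Regulators of p53 also went both ways. With OHT 7 of 12 were lower in set 1, and untreated 9 of 12 were, beside 47.2% and 49.8% of all autosomal genes tested. Mdm4 (chromosome 1), which masks the activation domain of p53, had 20.1 and 62.1 CPM in set 1, against 55.0 and 71.1 CPM in set 2. Ppm1d (chromosome 11), a phosphatase of the pathway that is also a p53 target, had 59.2 and 74.4 CPM in set 1, against 101 and 75.8 CPM in set 2. Trp73 (chromosome 4), a relative of p53, had 3.26 and 5.66 CPM in set 1, against 8.06 and 5.58 CPM in set 2. Ep300 (chromosome 15), a coactivator, had 258 and 249 CPM in set 1, against 157 and 255 CPM in set 2. None of the 12 regulators was called by edgeR, and the list's median was -0.13 with OHT and -0.05 untreated.

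Genes of DNA replication and mitosis stood slightly higher in set 1. The 31 replication genes had a median of 0.19 with OHT and 0.13 untreated. In both treatments 21 of the 31 were higher in set 1, beside 4472 of all 13667 autosomal genes tested. Outside chromosomes 6, 8, 11 and 16, the median of 20 genes was 0.19 with OHT and 0.12 untreated. Cdt1 (chromosome 8), which licenses origins, had 339 CPM in both libraries of set 1, against 199 and 254 CPM in set 2. Mcm6 (chromosome 1), a helicase subunit, had 811 and 775 CPM in set 1, against 471 and 708 CPM in set 2. The 29 mitosis genes had a median of 0.20 with OHT and 0.07 untreated. None in either list was called by edgeR.

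The 31 naive pluripotency genes went both ways. Their median was 0.09 with OHT and 0.03 untreated, and outside chromosomes 6, 8, 11 and 16 the median of 21 genes was 0.25 with OHT and -0.04 untreated. At an unadjusted p under 0.05, 2 were higher and 4 lower in set 1, and none was called by edgeR. Lin28a (chromosome 4), an RNA-binding protein that blocks let-7, had 85.4 and 74.8 CPM in set 1, against 43.97 and 62.4 CPM in set 2. Jam2 (chromosome 16), a junctional adhesion molecule, had 152 and 205 CPM in set 1, against 284 and 246 CPM in set 2. Pecam1 (chromosome 11), an adhesion protein, had 85.0 and 115 CPM in set 1, against 152 and 139 CPM in set 2. Of these 3 genes, chosen by fitted size, Lin28a was higher and the others lower in set 1 in both treatments. Nanog, on chromosome 6, had 713 and 868 CPM in set 1, against 746 and 849 CPM in set 2. Genes of the primed epiblast and mesendoderm (19 tested) had medians of 0.31 with OHT and 0.14 untreated. With OHT 6 of these 19 were lower in set 1, and untreated 7 were. Among them Eomes (chromosome 9), a T-box factor of the mesendoderm, had 41.7 and 49.7 CPM in set 1, against 23.5 and 36.9 CPM in set 2. Nodal (chromosome 10) went the other way, with 114 and 130 CPM in set 1, against 219 and 137 CPM in set 2. Neural ectoderm genes (9 tested) had medians of 0.57 with OHT and 0.19 untreated. Nes (chromosome 3), the intermediate filament nestin, had 147 and 96.5 CPM in set 1, against 72.8 and 87.4 CPM in set 2. Pax6 (chromosome 2), a transcription factor of the early eye and brain, had 8.01 and 2.03 CPM in set 1, against 4.75 and 1.13 CPM in set 2.

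The 31 genes of the two-cell state, a program of the cleavage embryo that a few ES cells enter, had a median of 0.36 with OHT and -0.02 untreated. Zscan4c had 62.5 and 3.40 CPM in set 1, against 46.4 and 2.87 CPM in set 2. Both OHT libraries were thus above both untreated ones, and set 1 was higher by 0.42 with OHT. Counts of single Zscan4 and Usp17l copies are uncertain, since near-identical genes share reads. Zfp365, 1 of 4 members lower in set 1 with OHT, had the widest difference of the list (-3.17), with 1.98 and 21.6 CPM in set 1, against 25.8 and 24.8 CPM in set 2.

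Of the telomere genes, Terf1 (chromosome 1), the shelterin subunit TRF1, had 184 and 152 CPM in set 1, against 92.6 and 113 CPM in set 2. Tert (chromosome 13), the catalytic subunit of telomerase, had 10.7 and 26.4 CPM in set 1, against 21.5 and 24.1 CPM in set 2. The 17 genes of the list had a median of -0.07 with OHT and 0.10 untreated.

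Genes linked to culture adaptation of pluripotent cells (15 autosomal genes) had medians of 0.31 with OHT and 0.11 untreated, and 0 were called by edgeR. Foxm1 (chromosome 6), a driver of mitotic genes, had 154 and 150 CPM in set 1, against 78.2 and 124 CPM in set 2. Myc (chromosome 15) had 121 and 154 CPM in set 1, against 100 and 109 CPM in set 2. Birc5, the apoptosis inhibitor survivin on distal chromosome 11, had 119 and 149 CPM in set 1, against 164 and 149 CPM in set 2. Bcl2l1 (chromosome 2), known from gains in human pluripotent cells, had 50.7 and 59.97 CPM in set 1, against 58.4 and 56.7 CPM in set 2. The members were thus not all on the same side.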

How the data were processed

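Counts per gene for 22600 Ensembl genes are used as the authors deposited them, as whole numbers without normalization, with 1 column per library. Salmon, DESeq2 and GRCm38 are listed, without roles or versions, per the submitters' processing notes, and the annotation is not given in the sources used here. The 2 FLICs libraries (differentiated cells) were left out of the fit, since they belong to no ES cell set. Positions came from GENCODE M21 (GRCm38), matched for 22509 genes and not for 91. Sex chromosomes were fitted but are printed only among the closer looks.

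In R 4.3.3, edgeR 4.0.16 (glmQLFit with its earlier deviances, glmQLFTest) was fitted to the 4 ES libraries with OHT as a block, TMM scaling and filterByExpr by set. This left 14208 genes, 13667 of them autosomal, and Benjamini-Hochberg adjustment over all of them set calls at 0.05. The biological coefficient of variation was 14.5%, with 8.71 prior and 1 residual degrees of freedom. CPM uses TMM-scaled library sizes. Differences are of log2(CPM + 1), set 1 minus set 2, within a treatment. Autosome medians use tested genes averaging at least 5 CPM. The scripts were tested on simulated data.

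Named genes were Terf2 and Trp53, the 5 smallest p-values per direction with the same sign in both treatments at 1 CPM or more, up to 8 (OHT) and 5 (untreated) of the widest differences per direction at 5 CPM or more, and up to 4 members of each list by fitted size. Model genes and pseudogenes were left out, and 1 gene that meets the rule is not reported here. Other members of the lists (such as Nanog, Cdkn1a, Ccnd3, Bax, Zscan4c, Myc and Birc5) were chosen after their values were seen. The members, lists and tests were chosen with earlier results of these data known. Alternatives were relative log expression scaling, DESeq2 1.42.0, limits of 0, 1, 5 and 20 CPM, a pseudocount of 0.25, means, no OHT block, 6 libraries, autosomes alone and each library left out. Added after seeing the data were edgeR's adjusted deviances, that pseudocount for autosomes, autosomes without list members, and lists without members on chromosomes 6, 8, 11 and 16.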

Additional observations from a re-analysis of the deposited data

Results flagged for a closer look

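Genes of the Y chromosome had reads in set 1 and next to none in set 2. Ddx3y, Eif2s3y, Kdm5d and Uty together had 179 counts in the OHT library and 49 counts in the untreated library of set 1, against 1 and 0 counts in set 2. The limit of a count of 0 is 3 counts. The FLICs libraries, which are in neither set, had 684 counts with OHT and 324 counts untreated. These genes lie outside the autosomal comparison, and what sets the libraries apart on the Y chromosome was not tested.

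The distal X chromosome was low in set 1. From 100 Mb on, a border set after the values were seen, 154 genes had a median difference (set 1 minus set 2) of -0.76 with OHT and -0.27 untreated, and 89.0% and 96.1% of them were lower in set 1. The 193 genes before 100 Mb had medians of 0.11 with OHT and 0.00 untreated. Within set 1 the distal genes had a median OHT minus untreated difference of -0.44, against 0.05 in set 2. Both differences between the sets stand apart from 0 in the same direction, and the cause was not tested.

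The replication-dependent histone genes, 23 in all, had a median of -0.13 with OHT and 0.15 untreated, so the sets lay on opposite sides in the 2 treatments. With OHT 17 of 23 were lower in set 1, and untreated 6 of 23 were, beside 47.2% and 49.8% of all autosomal genes tested. All 23 together summed to only 48.4 (OHT) and 38.9 (untreated) CPM in set 1, and to 52.3 and 31.4 CPM in set 2. These medians thus rest on low counts. The difference between the treatments was not tested.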

How the results depend on the processing

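The directions of chromosomes 6, 8, 11 and 16 held under every alternative run. The mean of the 2 treatment medians and its alternatives ranged from 0.15 to 0.35 on chromosome 6, 0.17 to 0.31 on chromosome 8, -0.13 to -0.07 on chromosome 11 and -0.30 to -0.14 on chromosome 16. The p53 target median ranged from -1.0001 to -0.06, its ends being OHT alone and untreated alone. No autosomal gene was called with all 4 libraries under any tool, filter, scaling or design run. With a library left out the OHT term was dropped, so that treatment is unbalanced between the sets by construction: calls ranged from 0 to 32 higher and from 0 to 111 lower, with 32 and 111 without the untreated library of set 1, and 28 lower without the OHT library of set 1. In these fits the log2 fold change ranged from -5.10 to 4.50 for Terf2 and from -4.63 to 0.83 for Trp53. At a pseudocount of 0.25, 121 genes were 2-fold higher in set 1 with OHT (56 at 1) and 3 untreated (0 at 1). At 5 CPM, 182 were 2-fold lower with OHT (333 at 1 CPM). The chromosome 11 and chromosome 2 borders were not varied. Libraries of the 2 sets were paired by treatment only, through the OHT block and the differences within a treatment. The set number is the comparison itself, so it could not serve as a pair. Depth limits genes near the floor of 3 counts.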

Other observations

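Further gene groups are given by their levels, since edgeR called 0 members in any list. Imprinted genes, which are expressed from 1 parental copy (27 tested), had a median difference of 0.17 with OHT and 0.00 untreated. In both treatments 10 members were higher and 7 lower in set 1, beside 4472 and 4068 of all 13667 autosomal genes tested. Mest (chromosome 6) had 328 and 229 CPM in set 1, against 162 and 175 CPM in set 2. Phlda2 (chromosome 7), an imprinted brake on placental growth, had 25.3 and 8.41 CPM in set 1, against 16.5 and 5.16 CPM in set 2, and Usp29 on the same chromosome had 2.01 and 2.26 CPM in set 1, against 5.07 and 3.90 CPM in set 2. The germline list (25 tested) had medians of -0.13 with OHT and -0.17 untreated. Its member Tex19.1 (chromosome 11), which restrains retrotransposons, had 171 and 144 CPM in set 1, against 345 and 206 CPM in set 2.

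Smooth muscle genes (11 tested) had medians of -0.50 with OHT and -0.08 untreated. With OHT 9 of 11 were lower in set 1, and untreated 8 were, beside 47.2% and 49.8% of all autosomal genes tested. Levels were low: of 12 autosomal members, 9 averaged 1 CPM or more with OHT and 6 untreated. Kept to genes with at least 5 CPM in 2 libraries, the mean of the 2 treatment medians went from -0.29 to -0.11. Tagln (chromosome 9), an actin-binding protein, had 3.83 and 1.64 CPM in set 1, against 9.43 and 2.19 CPM in set 2. Endothelium and blood genes (12 tested) had medians of -0.06 with OHT and -0.06 untreated. In both treatments 7 were lower and 2 higher in set 1, and untreated 10 of 12 were lower, beside 49.8% of all. Kept to genes with at least 5 CPM in 2 libraries, the mean of the 2 treatment medians moved from -0.06 to -0.44. Members of both directions were among those with the largest fitted size. Eng (chromosome 2), a TGF-beta coreceptor, had 13.8 and 70.0 CPM in set 1, against 62.6 and 71.0 CPM in set 2, while Tie1 (chromosome 4), a receptor kinase, had 9.71 and 0.360 CPM in set 1, against 5.46 and 0.342 CPM in set 2. Interferon response genes (22 tested) had medians of -0.11 with OHT and -0.06 untreated. Tap1 (chromosome 17), a peptide transporter of antigen presentation, had 1.05 and 2.19 CPM in set 1, against 9.08 and 3.08 CPM in set 2, while Bst2 (chromosome 8), which tethers viruses, had 22.8 and 32.7 CPM in set 1, against 17.3 and 23.6 CPM in set 2. DNA methylation genes (14 tested) had medians of 0.44 with OHT and 0.07 untreated. Uhrf1 (chromosome 17), which brings the maintenance methyltransferase to DNA, had 670 and 749 CPM in set 1, against 414 and 656 CPM in set 2. Ribosomal protein genes (30 tested) had small medians of opposite sign, at -0.08 with OHT and 0.07 untreated. With OHT 19 of 30 were lower in set 1, and untreated 4 of 30 were, beside 47.2% and 49.8% of all autosomal genes tested.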
